A study of Mus musculus with 6 samples.

Results

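The 47 genes described here are the Rab and Rab-like GTPase genes expressed in the mouse melanoma line B16F10, an established cell line, cultured in DMEM or in RPMI-1640. They were taken from a table of gene expression as the symbols made of Rab or Rabl, a number and at most 1 letter, averaging 1 FPKM or more across all 6 libraries, a rule that does not use the difference between the media. FPKM is the number of sequenced fragments scaled to the length of the gene and to the depth of the library, so levels can be compared between genes. The table holds 62 such symbols among 21878, and 10624 symbols of any kind reached the same mean and were tested. Each medium had 3 libraries, the DMEM ones and the RPMI-1640 ones alike labelled wild type and time 0, a time given without a unit. Both media carried 10% fetal bovine serum and antibiotics, and cells were kept at 37 °C under 5% CO2. The DMEM titles bear a code HG that the labels leave unexplained, a number before the replicate number also runs with the medium, and DMEM replicate 3 alone is marked L3 where the others are marked L2. Whatever these codes stand for cannot be told apart from the medium, or, for L3, from that library. Separate cultures are nowhere stated for the replicates, and the p-values therefore reflect the spread between libraries only, which may be of technical origin.

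Rab proteins are switches of membrane traffic. Each sits on particular organelles when bound to GTP and there recruits effectors that bud, move, tether or fuse vesicles; exchange factors load the GTP, GTPase-activating proteins of the TBC family end the signal, and prenyl groups hold the protein in the membrane. In pigment cells Rab32 and Rab38 bring melanin-making enzymes to the maturing melanosome, and Rab27a ties the finished melanosome to melanophilin and myosin Va for its move to the cell edge. The mouse coat-colour mutants chocolate and ashen carry lesions of Rab38 and Rab27a.

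Sequencing depth, estimated from the steps of the FPKM values, ran from 36959558 to 46404391 mapped reads in DMEM libraries and from 37827707 to 45361062 in RPMI-1640 libraries, and each Rab gene tested had between 180 and 29382 reads per library. All 7 melanocyte markers examined (Mitf, Pmel, Tyr, Tyrp1, Dct, Mlana and Sox10) were above 1 FPKM, with summed levels of 12964 to 13199 FPKM in DMEM libraries and 10677 to 10833 FPKM in RPMI-1640 libraries. Pmel, Dct and Sox10 were higher in every DMEM library than in any RPMI-1640 library, while Mitf (48.3 to 60.3 FPKM in DMEM, against 76.7 to 83.9 FPKM in RPMI-1640) and Tyr (115 to 134 FPKM in DMEM, against 139 to 148 FPKM in RPMI-1640) were lower in every DMEM library, and Tyrp1 and Mlana overlapped. In bulk RNA fewer cells of a kind and less RNA per cell cannot be told apart, and the part of these markers in the Rab differences was not tested. The labels also describe an adipogenic induction that is tied to neither medium. Of 6 adipocyte markers, Fabp4, Cidec, Lep and Cfd were listed at 0 in every library, and the summed level of the list was 0.104 to 0.614 FPKM in DMEM and 0 to 0.0915 FPKM in RPMI-1640. The fibroblast list had 1 of 6 markers above 1 FPKM, Pdgfrb, and summed to 4.99 to 5.41 FPKM in DMEM and 5.23 to 5.45 FPKM in RPMI-1640. The leukocyte list had 1 of 6, Cd68, and summed to 2.43 to 2.77 FPKM in DMEM and 1.66 to 1.80 FPKM in RPMI-1640, with Ptprc, Adgre1, Cd3e and Itgam among those at 0.

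Of the 47 Rab genes, 23 rose and 9 fell in DMEM relative to RPMI-1640 in limma at an adjusted p under 0.05, as deposited, while with every library scaled to a common sum 15 were higher and 17 lower. Rab17, Rab20 and Rab29 had the largest rises and Rab30, Rab33b and Rab8b the largest falls, of which those of Rab30 and Rab8b became rises once a trend with gene length and GC content was removed. The share of Rab genes called higher was 48.9%, where 35.4% of all genes tested were called higher, and the share called lower was 19.1%, against 40.6% of all genes. In either direction 68.1% of the Rab genes were called, a share below the 76% of all genes. The median difference, DMEM minus RPMI-1640 on the log2(FPKM + 1) scale, was 0.17 for the Rab genes and -0.033 for all genes; this scale understates the change of low genes. Most differences were small, and only Rab17 and Rab20 (4.26% of the Rab genes, against 6.38% of all genes) were called with a difference of at least 1. For 35 Rab genes (74.5%) no DMEM library overlapped the RPMI-1640 libraries, 25 of them higher and 10 lower in DMEM, where the same was true of 79% of all genes, 36.7% higher and 42.2% lower.

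**Figure D1:**
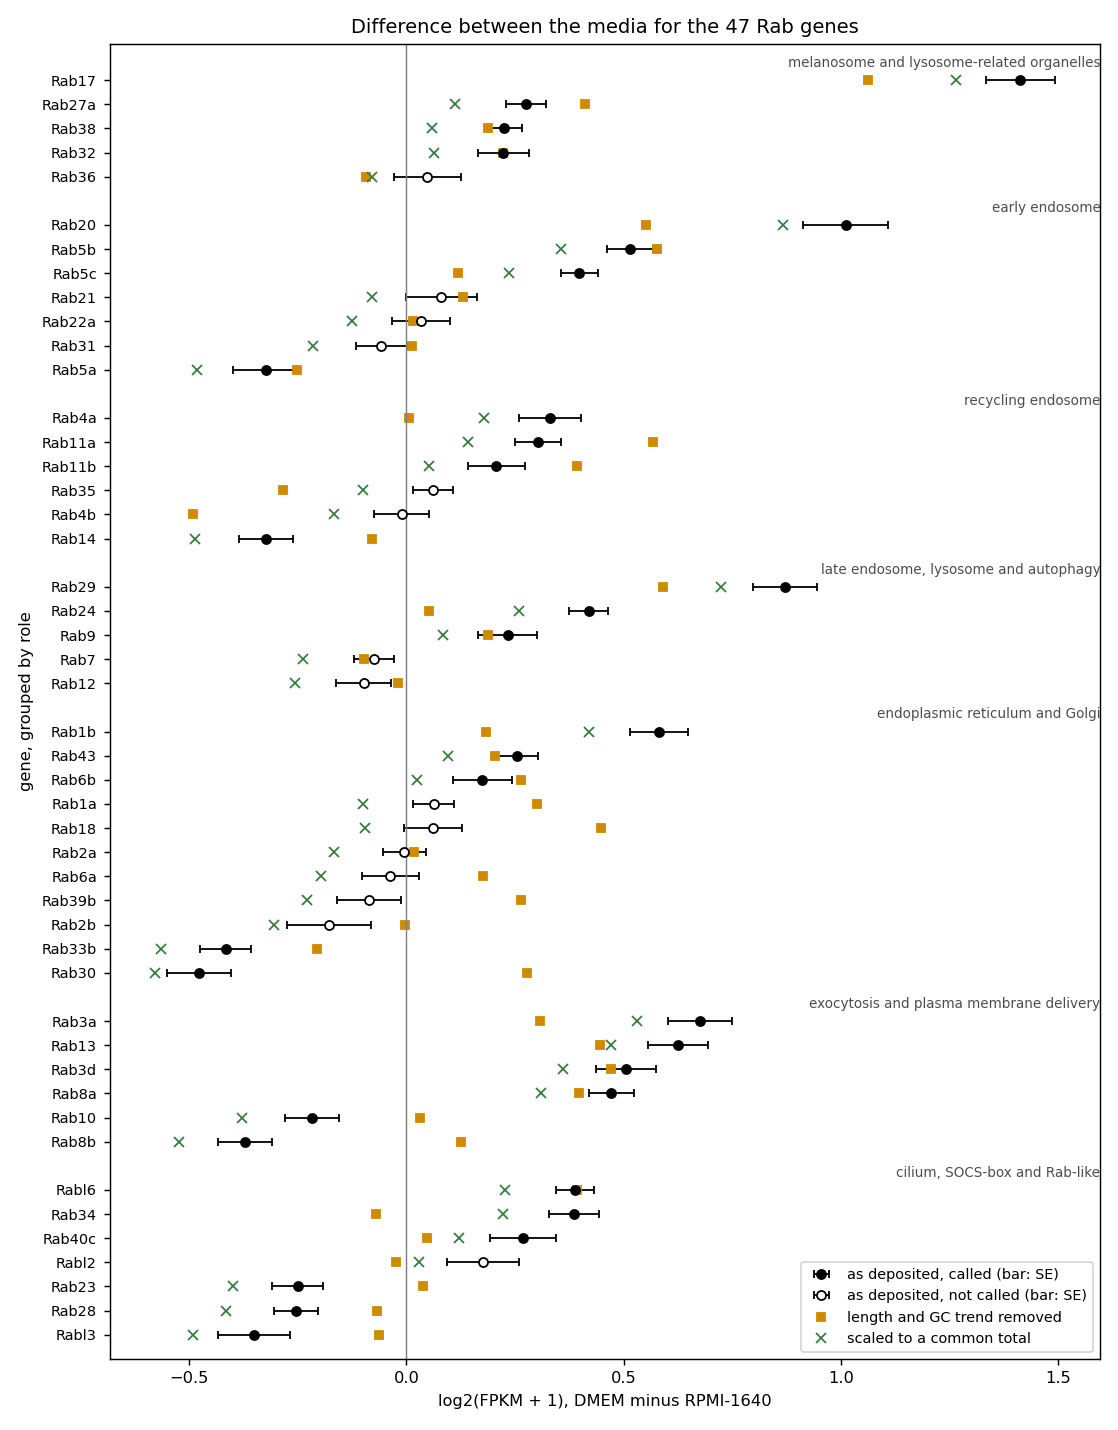
Difference in log2(FPKM + 1), DMEM minus RPMI-1640, for each of the 47 Rab genes grouped by role. Circles with bars (SE) are the values as deposited, filled where limma called them; squares are the values after removal of the length and GC trend and crosses those after scaling to a common total, which lie to the left of the circles.

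The split depends on how the libraries are scaled. The deposited FPKM summed to 475993 to 499334 per library in DMEM and to 431400 to 439693 in RPMI-1640. With every library scaled to a common sum, the median difference of all genes moved to -0.18 and that of the Rab genes to 0.025. The 15 Rab genes then called higher were 31.9% (25% of all genes) and the 17 called lower 36.2% (51.5% of all genes), together 68.1%, against 76.5% of all genes. The median of the Rab genes lay 0.21 above that of all genes on both scales. A common sum moves all genes by nearly the same amount, so it could hardly change this gap. A common sum lowered the difference of each Rab gene by 0.10 to 0.16. It ended the calls of 8 genes that rose (Rab11b, Rab27a, Rab32, Rab38, Rab40c, Rab43, Rab6b and Rab9) and added calls for 8 lower in DMEM (Rab12, Rab2a, Rab2b, Rab31, Rab39b, Rab4b, Rab6a and Rab7). Differences also followed the length and GC content of genes. With that trend removed 25 Rab genes were called higher (53.2%, against 36.8% of all genes) and 5 lower (10.6%, against 37.2%), in all 63.8% of the Rab genes and 74% of all genes. The median of the Rab genes then lay 0.13 above that of all genes. Called in the same direction on all 3 scales were 12 genes higher in DMEM (Rab11a, Rab13, Rab17, Rab1b, Rab20, Rab29, Rab3a, Rab3d, Rab5b, Rab5c, Rab8a and Rabl6) and 2 lower (Rab5a and Rab33b).

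The sequence just upstream of the start of transcription is shown for Rab17, Rab29 and Rab20, the genes with the largest differences. The sequences are from RefSeq on GRCm38.p6, written 5′ to 3′ on the strand of the gene, and capitals mark ACGTG or its reverse complement CACGT, the core of the element bound by hypoxia-inducible factors and by several basic helix-loop-helix factors.
Rab17, chr1:90967668-90967917 on the minus strand, inside the annotated gene and outside its exons: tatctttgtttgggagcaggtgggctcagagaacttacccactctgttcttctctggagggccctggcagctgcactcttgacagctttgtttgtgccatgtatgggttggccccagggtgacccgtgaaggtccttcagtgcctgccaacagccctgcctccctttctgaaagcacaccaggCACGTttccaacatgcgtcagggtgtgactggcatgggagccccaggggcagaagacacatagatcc
Rab29, chr1:131867027-131867223 on the plus strand, outside the exons: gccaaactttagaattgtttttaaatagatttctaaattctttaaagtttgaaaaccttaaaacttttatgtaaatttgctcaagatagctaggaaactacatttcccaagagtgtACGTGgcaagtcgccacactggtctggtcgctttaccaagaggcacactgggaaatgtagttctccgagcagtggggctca
Rab20, chr8:11478669-11478698 on the minus strand, a site before the RefSeq start that lies in an exon of the GENCODE annotation: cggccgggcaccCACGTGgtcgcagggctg
In Rab17 the match is CACGT, in Rab29 it is ACGTG, and in Rab20 it lies within the palindrome CACGTG, the E-box read by Mitf and Tfeb among others. Windows of 250 bases before the start were found for 41 of the 47 genes, 50 windows in all. Searched on both strands, ACGTG was in 11 of the 50 (22%) and in 16.6% of all 32851 windows of that length in the table. CACGTG, which contains ACGTG, was in 5 of 50 (10%; Rab20, Rab21, Rab23, Rab27a and Rab5a) and in 6.02% of all windows. CATGTG, the other E-box bound by Mitf, was in 3 of 50 (6%) and in 12.3% of all windows. Also searched was GCGTG, in 20 of 50 (40%) and in 28.2% of all windows. TCANGTG, where N is any base, was in 8 of 50 (16%) and in 12.2% of all windows, and TGACGTCA in 1 of 50 (2%) and in 1.55%. These matches describe letters only: genes holding CACGTG include Rab20, which rose, Rab5a and Rab23, which fell, and Rab21, which was not called. Rab18, Rab2a, Rab30, Rab36, Rab38 and Rab4a have no entry in the table.

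Of the 5 Rab genes of melanosomes and related organelles, 4 rose in DMEM as deposited and none fell (35.4% and 40.6% of all genes). The median difference of the group was 0.22. With a common sum 1 rose and none fell (25% and 51.5% of all genes). Rab38 had 408, 407 and 402 FPKM in the DMEM libraries, against 347, 345 and 348 FPKM in the RPMI-1640 libraries. Every DMEM library lay above every RPMI-1640 library, and Rab38 was the highest Rab gene of the table in both media. The difference was 0.22 (SE 0.043, limma adjusted p = 0.000531), a 1.17-fold ratio of means. In the GENCODE annotation of GRCm38 Rab38 spans chr7:88430273-88491572, Rab27a chr9:73044854-73097629, Rab32 chr10:10545002-10558265 and Rab17 chr1:90958133-90969661. Rab32, its closest relative and partly redundant with it in mouse melanocytes, had 28.3, 28.9 and 25.4 FPKM in DMEM, against 23.7, 23.9 and 22.6 FPKM in RPMI-1640, again without overlap. Its difference was 0.22 (adjusted p = 0.0047). Rab38 held 93.6% of the summed FPKM of this pair in DMEM and 93.7% in RPMI-1640, shares that overlapped (exact two-sided permutation p = 0.8).

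Rab27a, which docks mature melanosomes on the actin network, had 93.7, 98.0 and 93.1 FPKM in DMEM, against 75.9, 78.3 and 80.6 FPKM in RPMI-1640. The groups did not overlap, and the difference was 0.28 (adjusted p = 0.00019). Its paralog Rab27b was listed at 0 in 3 of the 6 libraries and reached at most 0.0305 FPKM. Rab17, a Rab of polarised epithelia that in melanocytic cells has been placed in the release of melanosomes, changed most of all Rab genes. It had 17.6, 16.0 and 19.6 FPKM in DMEM, against 6.36, 6.19 and 5.53 FPKM in RPMI-1640, so that every DMEM library was far above every RPMI-1640 library. The means of 17.7 ± 1.84 FPKM in DMEM and 6.02 ± 0.438 FPKM in RPMI-1640 (SD, n = 3 each) gave a 2.95-fold ratio and a difference of 1.41 (SE 0.080, adjusted p = 6.14e-08). Rab36, which takes part in the return of melanosomes toward the cell centre, had 3.45, 3.14 and 3.64 FPKM in DMEM and 3.02, 3.31 and 3.46 FPKM in RPMI-1640; the groups overlapped and the difference of 0.048 was not called (adjusted p = 0.585).

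The small rises in this group turn on the scaling. With a common sum only Rab17 was still called (1.27, adjusted p = 2.39e-07), while the differences of Rab27a, Rab38 and Rab32 were 0.11, 0.060 and 0.065 with adjusted p of 0.0525, 0.187 and 0.408. Quantile normalization took the difference of Rab38 to 0.00046 (adjusted p = 0.993). After removal of the length and GC trend all 4 were called, at 1.06 for Rab17, 0.41 for Rab27a, 0.22 for Rab32 and 0.19 for Rab38. On that scale 36.8% of all genes were called higher and 37.2% lower.

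**Figure D2:**
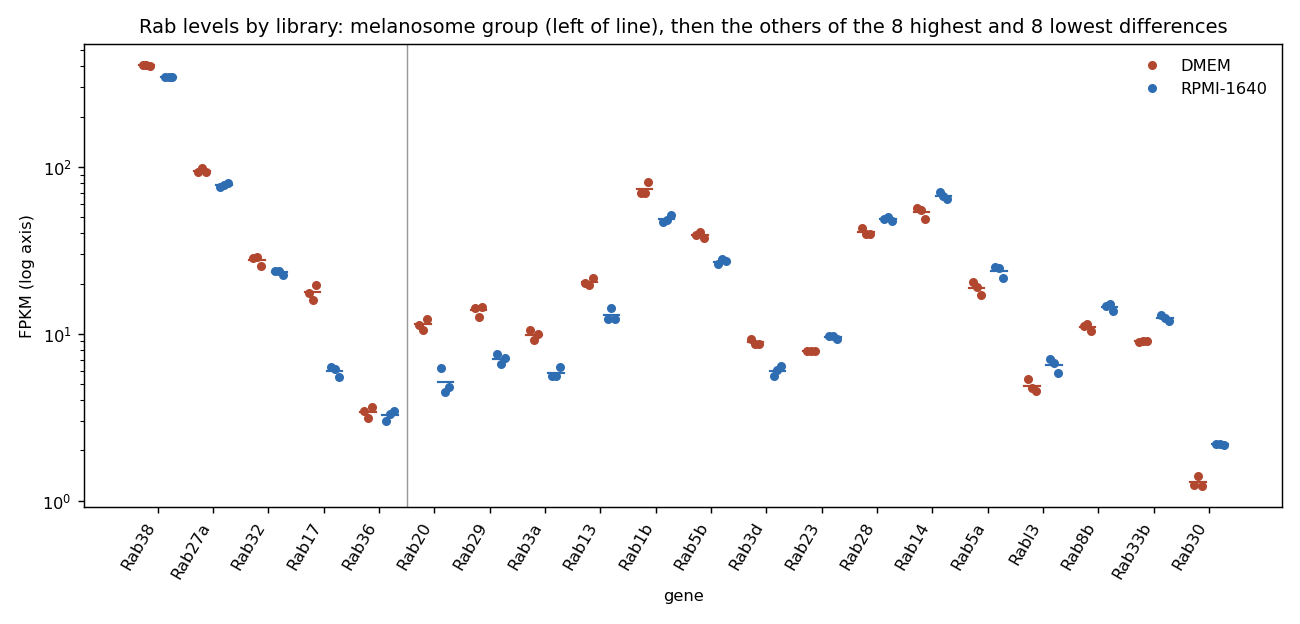
FPKM (log axis) of each library for the melanosome group, left of the line, and for the other genes among the 8 highest and 8 lowest differences; short bars are means of 3 libraries. The DMEM libraries of Rab17 lie between 16.0 and 19.6 FPKM and the RPMI-1640 libraries between 5.53 and 6.36 FPKM, while Rab36 overlaps.

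Early endosomes carry the Rab5 proteins, which drive homotypic fusion, and a set of related Rabs. Of 7 genes 3 rose and 1 fell in DMEM (35.4% and 40.6% of all genes), as also with the trend removed (36.8% and 37.2% of all genes). With a common sum 3 rose and 2 fell (25% and 51.5% of all genes). Rab20, an endosomal and phagosomal Rab, had 11.3, 10.6 and 12.3 FPKM in DMEM, against 6.20, 4.50 and 4.83 FPKM in RPMI-1640. The groups did not overlap, and the difference was 1.01 (SE 0.098, adjusted p = 2.65e-06), a 2.20-fold ratio. Its annotated exons overlap those of E230013L22Rik on the other strand over 25.6% of their length, and whether counting used strand is not given, so part of this value may belong to that gene. Removing the length and GC trend left Rab20 at 0.55.

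The 3 Rab5 genes did not move together. Rab5b had 38.9, 40.9 and 37.7 FPKM in DMEM, against 26.0, 27.9 and 27.4 FPKM in RPMI-1640. Rab5c, the most abundant of the 3, had 129.5, 127 and 133 FPKM in DMEM, against 97.1, 97.7 and 100.4 FPKM in RPMI-1640. Both were higher in every DMEM library, by 0.52 (adjusted p = 3.8e-06) and 0.40 (adjusted p = 6.72e-06); with the trend removed the differences were 0.58 and 0.12, both called. Rab5a went the other way, with 20.5, 19.0 and 17.2 FPKM in DMEM, against 25.3, 24.7 and 21.6 FPKM in RPMI-1640. Its groups did not overlap and it fell by 0.32 (adjusted p = 0.00209), a fall also called with the trend removed and with a common sum. Rab5a made up 10.9%, 10.1% and 9.13% of the Rab5 FPKM in the DMEM libraries and 17.0%, 16.5% and 14.5% in the RPMI-1640 libraries. These shares did not overlap, and the exact two-sided permutation test gave p = 0.1, the smallest that 3 libraries against 3 allow. After removal of the trend the means were 10.9% in DMEM and 14.7% in RPMI-1640. The other 3 genes were not called. Rab22a, Rab31 and Rab21 differed by 0.033, -0.058 and 0.081, with overlapping groups. Rab21, which acts in the traffic of integrins, had 38.8, 39.4 and 36.5 FPKM in DMEM and 42.0, 34.4 and 32.5 FPKM in RPMI-1640. RPMI-1640 replicate 1 was above the other 2 of its medium, and without it Rab21 was called higher in DMEM (0.19, adjusted p = 0.0191), while Rab22a was called without DMEM replicate 3 (0.11, adjusted p = 0.0466).

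**Figure D3:**
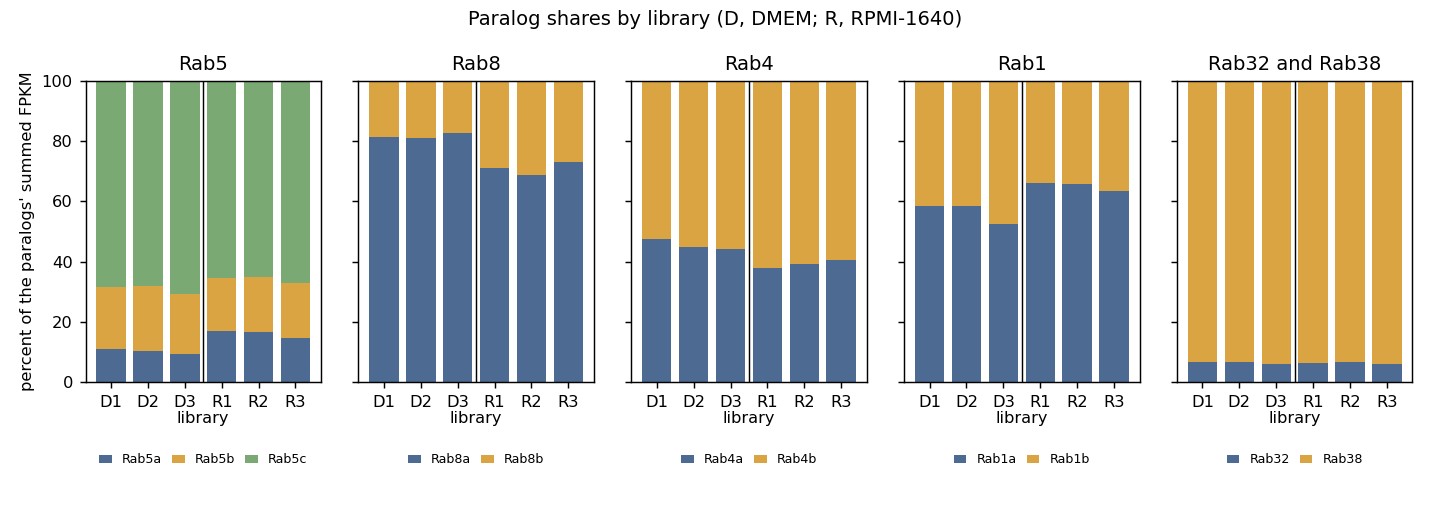
Share of each gene in the summed FPKM of its paralogs, in percent, for the DMEM libraries (D) left of the line and the RPMI-1640 libraries (R) right of it. Rab5a holds 9.13% to 10.9% in DMEM and 14.5% to 17.0% in RPMI-1640, Rab8a holds more in DMEM, and Rab32 and Rab38 keep about the same ratio.

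Recycling from endosomes to the plasma membrane uses Rab4, the fast route, and Rab11, the slow one. Here 3 of 6 genes rose and 1 fell in DMEM (35.4% and 40.6% of all genes). On the other scales 2 rose and 2 fell, both with the trend removed (36.8% and 37.2% of all genes) and with a common sum (25% and 51.5%). Rab11a had 44.1, 43.0 and 40.4 FPKM in DMEM, against 32.7, 34.8 and 35.3 FPKM in RPMI-1640, without overlap, a difference of 0.30 (adjusted p = 0.000272), which was 0.57 with the trend removed and 0.14 with a common sum. Rab11b rose by 0.21 (adjusted p = 0.0136), a call lost without RPMI-1640 replicate 1 (adjusted p = 0.0541) and with a common sum (adjusted p = 0.462), and larger with the trend removed (0.39). Rab4a had 15.4, 13.0 and 14.8 FPKM in DMEM, against 10.6, 11.3 and 11.7 FPKM in RPMI-1640. It rose by 0.33 (adjusted p = 0.00124), and with the trend removed the difference was 0.0060 (adjusted p = 0.924). Rab4b had 17.0, 15.9 and 18.8 FPKM in DMEM and 17.4, 17.5 and 17.1 FPKM in RPMI-1640, overlapping and not called, so Rab4a held 47.5%, 44.9% and 44.1% of the Rab4 FPKM in DMEM, against 37.9%, 39.3% and 40.6% in RPMI-1640. The exact p of that share was 0.1. Of the 32-base words of the Rab4b transcript 93.1% also occur in other genes, chiefly Gm21983, so its level is uncertain. Rab14, which moves cargo between the Golgi and endosomes, had 56.8, 55.1 and 48.8 FPKM in DMEM, against 70.6, 66.7 and 64.3 FPKM in RPMI-1640, and fell by 0.32 (adjusted p = 0.00053). With the trend removed its difference was -0.080 (adjusted p = 0.0657), called lower only once the replicate number was a block as well (adjusted p = 0.0328). Rab35 was 37.3 to 38.6 FPKM in DMEM and 35.7 to 36.9 FPKM in RPMI-1640, a difference of 0.061 that was not called (adjusted p = 0.238).

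Late endosomes, lysosomes and autophagy are served by 5 of the genes, of which 3 rose in DMEM and none fell (35.4% and 40.6% of all genes). With the trend removed 2 rose and 1 fell (36.8% and 37.2% of all genes), and with a common sum 2 rose and 2 fell (25% and 51.5%). Rab29, which recruits the kinase LRRK2 to Golgi and lysosomal membranes, had 14.4, 12.7 and 14.5 FPKM in DMEM, against 7.61, 6.58 and 7.13 FPKM in RPMI-1640. The lowest DMEM library was well above the highest RPMI-1640 library, and the difference was 0.87 (SE 0.074, adjusted p = 9.14e-07), a 1.95-fold ratio. Rab24, a Rab of autophagy, had 52.4, 50.02 and 52.6 FPKM in DMEM, against 38.5, 38.2 and 38.3 FPKM in RPMI-1640, a rise of 0.42 (adjusted p = 6.27e-06). Its exons overlap Prelid1 on the other strand over 62.4% of their length, and with that trend removed its difference was 0.051 (adjusted p = 0.22). Rab9, of the route from late endosomes to the Golgi, rose by 0.23 (adjusted p = 0.00829), and by 0.084 without passing the test with a common sum (adjusted p = 0.272). Rab7, the defining Rab of late endosomes and the second most abundant of the 47, had 281, 264 and 259 FPKM in DMEM and 281, 283 and 282 FPKM in RPMI-1640. The groups overlapped and its difference of -0.074 was not called (adjusted p = 0.168). It was called lower with a common sum (-0.24, adjusted p = 0.000678) and with the trend removed (-0.098, adjusted p = 0.0178). Rab12, of the path that degrades transferrin receptor, differed by -0.099 (adjusted p = 0.181).

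Among 11 genes of the endoplasmic reticulum and Golgi, 3 rose, 2 fell and 6 were not called, with a median difference of -0.0045. Of all genes 35.4% rose and 40.6% fell. The counts moved with the scale. With the trend removed 8 rose and 1 fell (36.8% and 37.2% of all genes), and with a common sum 1 rose and 6 fell (25% and 51.5%). Rab1b, needed for vesicle transport from the endoplasmic reticulum to the Golgi, had 69.8, 69.5 and 81.4 FPKM in DMEM, against 46.6, 47.9 and 51.7 FPKM in RPMI-1640. It rose by 0.58 (adjusted p = 9.82e-06) without overlap, although less with the trend removed (0.18, adjusted p = 0.0017). Its paralog Rab1a was more abundant, with 97.8, 97.3 and 90.5 FPKM in DMEM and 90.4, 92.5 and 90.3 FPKM in RPMI-1640, and was not called (0.063, adjusted p = 0.241). Rab1a was called higher without DMEM replicate 3 (0.098, adjusted p = 0.0405) and with the trend removed (0.30, adjusted p = 8.56e-06). Rab1a therefore held 58.4%, 58.3% and 52.6% of the Rab1 FPKM in DMEM, against 66.0%, 65.9% and 63.6% in RPMI-1640, without overlap (exact p = 0.1). The order turned round with the trend removed, to 61.8% in DMEM and 59.9% in RPMI-1640.

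Rab33b, a Golgi Rab that binds the autophagy protein Atg16l1, had 8.98, 9.11 and 9.11 FPKM in DMEM, against 13.0, 12.4 and 12.0 FPKM in RPMI-1640. The groups did not overlap, and it fell by 0.42 (adjusted p = 5.18e-05), and by 0.21 with the trend removed. Rab30, also of the Golgi and the lowest of the 47, had 1.23, 1.40 and 1.22 FPKM in DMEM, against 2.18, 2.19 and 2.17 FPKM in RPMI-1640. Its fall was 0.48 (adjusted p = 0.00011), with a DMEM mean 0.590 times the RPMI-1640 mean, but with the trend removed it was called higher in DMEM (0.28, adjusted p = 0.0101). Its counted length of 6997 bases was the greatest of the 47 genes. Rab43 rose by 0.25 (adjusted p = 0.000591), with 90.4% of its words shared, chiefly with Gm45140, a call lost with a common sum (0.095, adjusted p = 0.106). Rab6b rose by 0.17 (adjusted p = 0.0356), a call lost when DMEM replicate 3, or replicate 1 or 2 of RPMI-1640, was left out (adjusted p = 0.0928 to 0.122), without a filter (adjusted p = 0.059) and with a common sum (0.025, adjusted p = 0.743). The difference of Rab2a, the fourth most abundant of the 47, was -0.0045 (adjusted p = 0.938), with 112, 104 and 104 FPKM in DMEM and 109, 110.1 and 103 FPKM in RPMI-1640. It was called lower with a common sum (-0.17, adjusted p = 0.0129) and with quantile normalization (-0.14, adjusted p = 0.034). Rab18, of lipid droplets and the endoplasmic reticulum, and Rab6a, of transport within the Golgi, differed by 0.062 and -0.037 and were not called; Rab39b and Rab2b differed by -0.086 and -0.18 and were not called either.

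All 6 genes of exocytosis and delivery to the plasma membrane were called, 4 higher and 2 lower in DMEM, as also with a common sum. Of all genes 76% were called, 35.4% higher and 40.6% lower, and with a common sum 76.5%, 25% higher and 51.5% lower. With the trend removed 5 of the 6 were called higher and none lower (36.8% and 37.2% of all genes). Rab3a, of regulated secretion in neurons and endocrine cells, had 10.5, 9.18 and 10.0 FPKM in DMEM, against 5.55, 5.59 and 6.33 FPKM in RPMI-1640. Rab3d, of secretory granules in exocrine cells, had 9.35, 8.74 and 8.69 FPKM in DMEM, against 5.55, 6.06 and 6.38 FPKM in RPMI-1640. Neither overlapped, and they rose by 0.68 (adjusted p = 6.73e-06) and 0.51 (adjusted p = 4.03e-05), and by 0.31 and 0.47 with the trend removed. Rab13, of junction assembly in epithelia, had 20.3, 19.5 and 21.6 FPKM in DMEM, against 12.3, 14.2 and 12.3 FPKM in RPMI-1640, a rise of 0.63 (adjusted p = 7.22e-06).

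The Rab8 pair split by paralog. Rab8a, of traffic from the Golgi to the plasma membrane and cilium, had 48.9, 49.3 and 50.5 FPKM in DMEM, against 35.8, 33.4 and 37.3 FPKM in RPMI-1640. Rab8b had 11.1, 11.4 and 10.4 FPKM in DMEM, against 14.6, 15.2 and 13.7 FPKM in RPMI-1640. Rab8a was higher and Rab8b lower in every DMEM library, by 0.47 (adjusted p = 7.43e-06) and -0.37 (adjusted p = 0.000194). Rab8a made up 81.5%, 81.2% and 82.9% of the pair in DMEM libraries, against 71.0%, 68.7% and 73.1% in RPMI-1640 libraries (exact p = 0.1). With the trend removed Rab8b was called higher in DMEM (0.13, adjusted p = 0.032), and the share of Rab8a was 78.5% in DMEM and 75.1% in RPMI-1640. Rab10, which delivers the glucose transporter GLUT4 in fat cells, had 50.3, 48.7 and 42.4 FPKM in DMEM, against 56.3, 54.9 and 53.3 FPKM in RPMI-1640. It fell by 0.22 (adjusted p = 0.00793), a difference of -0.14 without DMEM replicate 3 and of 0.031 (adjusted p = 0.469) with the trend removed.

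The last 7 genes, of cilia, of the SOCS-box type or Rab-like, held 3 that rose and 3 that fell in DMEM (35.4% and 40.6% of all genes). With the trend removed 1 rose and none fell (36.8% and 37.2% of all genes), and with a common sum 2 rose and 3 fell (25% and 51.5%). Rabl6 had 72.7, 74.9 and 74.1 FPKM in DMEM, against 55.5, 56.9 and 56.2 FPKM in RPMI-1640, a rise of 0.39 (adjusted p = 7.51e-06) that was the same size with the trend removed (0.39). Rab34, needed early in the making of some cilia, rose by 0.39 (adjusted p = 8.19e-05), and Rab40c, which joins a ubiquitin ligase through its SOCS box, by 0.27 (adjusted p = 0.00676). Neither was called with the trend removed (-0.071 and 0.049), and Rab40c was not called with a common sum either (0.12, adjusted p = 0.175). Rab28, linked to cone photoreceptors, had 42.8, 39.8 and 39.5 FPKM in DMEM, against 48.7, 50.3 and 47.1 FPKM in RPMI-1640. Rab23, a brake on Hedgehog signalling in the mouse, had 7.88, 7.87 and 7.89 FPKM in DMEM, against 9.71, 9.70 and 9.28 FPKM in RPMI-1640. Rabl3 had 5.34, 4.75 and 4.57 FPKM in DMEM, against 7.09, 6.66 and 5.80 FPKM in RPMI-1640. None of the 3 overlapped, and they fell by 0.25, 0.25 and 0.35 (adjusted p = 0.000771, 0.00221 and 0.00231). With the trend removed none of the 3 was called (-0.068, 0.039 and -0.064). Rabl2, a ciliary Rab-like protein, differed by 0.18 and was not called (adjusted p = 0.0705); with the replicate number as a block it was called (adjusted p = 0.0212), and also without RPMI-1640 replicate 3 (adjusted p = 0.0478).

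In all, the 47 genes summed to 2137 ± 30.9 FPKM in DMEM and 1920 ± 7.12 FPKM in RPMI-1640 (SD, n = 3 each), without overlap (exact two-sided permutation p = 0.1, the smallest possible). As a share of the whole table the sums were 0.439% ± 0.0141 in DMEM and 0.442% ± 0.00641 in RPMI-1640 (SD, n = 3 each), which overlapped (exact p = 1). Rab38 alone made up 18.8% to 19.1% of the Rab sum in DMEM libraries, against 18.0% to 18.2% in RPMI-1640 libraries, and Rab7 made up 12.3% to 12.9% in DMEM, against 14.6% to 14.7% in RPMI-1640. Neither range overlapped (exact p = 0.1 each). After Rab38 and Rab7 the most abundant genes by mean FPKM were Rab5c, Rab2a, Rab1a and Rab27a, and the other 41 were each at or below 65.1 FPKM on average. The genes just above the limit of 1 FPKM were Rab30, Rab36 and Rab2b, with means of 1.73, 3.34 and 3.44 FPKM over the 6 libraries. Just below it were Rab37 at 0.713 FPKM and Rab15 at 0.627 FPKM. Rab37, a Rab of secretory granules, had 1.10, 1.13 and 1.13 FPKM in DMEM, against 0.286, 0.368 and 0.270 FPKM in RPMI-1640. Its ratio of means was larger than that of Rab17. Without the filter the genes below it that were called were Rab37, Rab40b and Rab44, all higher in DMEM. Their differences were 0.70, 0.20 and 0.14 (limma adjusted p = 2.04e-05, 0.00731 and 0.0238). The means of Rab40b and Rab44 over the 6 libraries were only 0.0995 and 0.258 FPKM. Of the 15 genes below the limit, Rab42, Rab3c and Rab26 were listed at 0 in every library.

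Length and base composition ran with the difference. Spearman's correlation of the difference, over the 10323 tested genes for which both were known, was -0.464 with the counted length and 0.469 with the GC content of the longest transcript. Across the 47 Rab genes it was -0.423 and 0.659. These are correlations across genes, which share libraries and are not independent replicates. Of the 24 Rab genes at or below the median length of 2333 bases, 15 rose and 2 fell in DMEM; of the 23 longer genes 8 rose and 7 fell. With the trend removed the counts were 12 higher and 3 lower among the shorter genes and 13 higher and 2 lower among the longer ones. Of all genes 35.4% rose and 40.6% fell as deposited, and 36.8% and 37.2% with the trend removed. These shares are over genes of any length. Shares of all genes by length were not counted. Removal of the trend turned 2 called falls, of Rab30 and Rab8b, into called rises, and ended the call of 4 other genes that rose (Rab24, Rab34, Rab40c and Rab4a) and 5 that fell (Rab10, Rab14, Rab23, Rab28 and Rabl3). It added calls for 4 genes higher in DMEM (Rab18, Rab1a, Rab39b and Rab6a) and 3 lower (Rab35, Rab4b and Rab7). The trend was fitted to all genes and can also take away differences that are not technical, which was not tested.

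**Figure D4:**
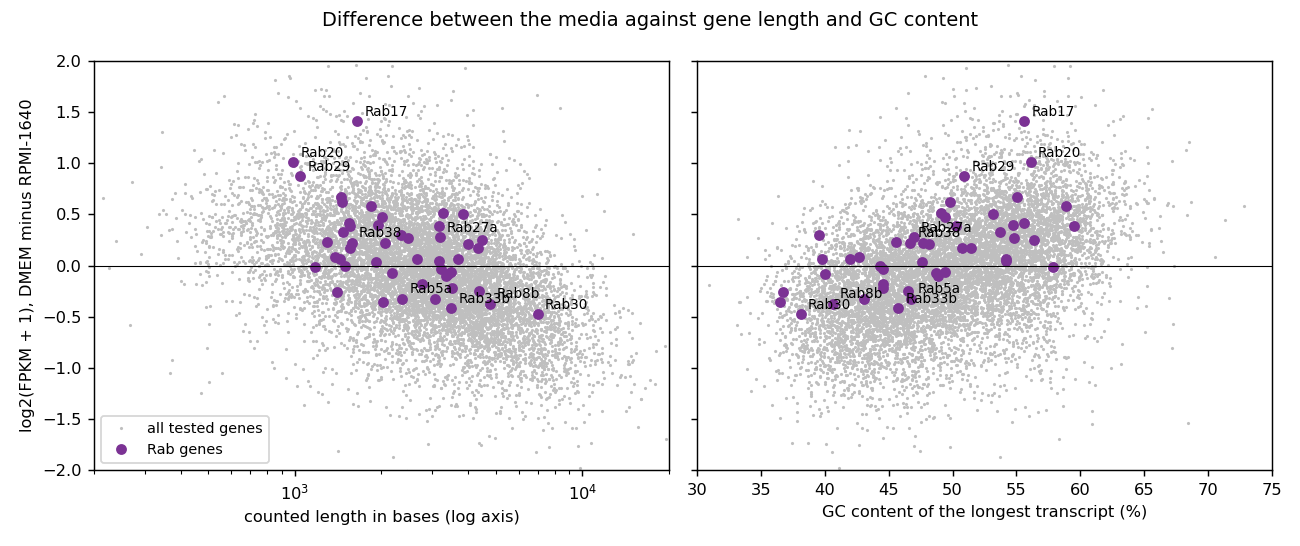
Difference in log2(FPKM + 1), DMEM minus RPMI-1640, against counted length (left, log axis) and GC content (right) for all tested genes within the plotted range (grey) and the 47 Rab genes (purple). Short Rab17, Rab20 and Rab29, of which Rab17 and Rab20 are GC-rich, lie at the top and long, GC-poor Rab30 and Rab8b at the bottom.

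The genes that load, switch and read Rab proteins were also followed. Of 136 listed genes 120 were tested, and 37 were higher and 47 lower in DMEM, with a median difference of -0.020, where 35.4% of all genes were called higher and 40.6% lower. The counts were 53 higher and 31 lower with the trend removed (36.8% and 37.2% of all genes). With a common sum 26 were higher and 62 lower (25% and 51.5% of all genes). Of 8 genes for prenylation and membrane recycling, 1 rose and 4 fell, although with the trend removed 4 rose and 2 fell. Rabggtb, the catalytic subunit of the enzyme that prenylates Rabs, had 37.2, 35.6 and 35.6 FPKM in DMEM, against 48.5, 47.4 and 44.2 FPKM in RPMI-1640, and fell by 0.36 (adjusted p = 5.22e-05) on the deposited scale, and by 0.36 with the trend removed. Ggps1, which makes the geranylgeranyl donor, fell by 0.46 (adjusted p = 0.000405), to 8.76, 8.69 and 6.91 FPKM in DMEM, against 11.6, 11.9 and 10.9 FPKM in RPMI-1640, and was not called with the trend removed (-0.015). The escort proteins Chm and Chml fell by 0.34 and 0.43 (adjusted p = 0.0103 and 0.000962), but were called higher with the trend removed (0.24 and 0.20). Gdi2, which extracts Rabs from membranes, differed by 0.0027 as deposited and was not called. It was called higher with the trend removed (0.21, limma adjusted p = 6.56e-05) and lower with a common sum (-0.16, adjusted p = 0.0196).

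Of 33 exchange factors tested 9 rose and 13 fell in DMEM, shares of 27.3% and 39.4% where 35.4% and 40.6% of all genes did. With the trend removed 14 rose and 8 fell (36.8% and 37.2% of all genes), and with a common sum 6 rose and 18 fell (25% and 51.5%). Dennd4a, an exchange factor for Rab10 in human cells, had 6.32, 6.35 and 5.16 FPKM in DMEM, against 15.2, 15.1 and 14.3 FPKM in RPMI-1640, a difference of -1.20 (adjusted p = 1.51e-07) and of -0.49 with the trend removed. Sbf2, for Rab28 and Rab21 in human cells and flies, differed by -0.97 (adjusted p = 3.53e-07), and Mon1a, a subunit of the Rab7 exchange factor, by 0.85 (adjusted p = 1.08e-06); with the trend removed these were -0.46 and 0.50. Hps1 and Hps4 form BLOC-3, the exchange factor of Rab32 and Rab38, and are named here after their values were seen. Hps1 had 20.4, 19.6 and 23.7 FPKM in DMEM, against 13.4, 14.3 and 15.04 FPKM in RPMI-1640, and Hps4 had 16.8, 17.3 and 18.9 FPKM in DMEM, against 10.8, 10.4 and 11.5 FPKM in RPMI-1640. Both rose without overlap, by 0.54 and 0.65 (adjusted p = 4.01e-05 and 3.1e-06), and were called on all 3 scales, at 0.27 and 0.45 with the trend removed.

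Of 31 TBC-domain proteins 11 rose and 10 fell, shares of 35.5% and 32.3% where 35.4% and 40.6% of all genes did. With the trend removed the counts were 15 and 5 (36.8% and 37.2% of all genes), and with a common sum 8 and 14 (25% and 51.5%). Among the called genes were Tbc1d2 at 0.95, Tbc1d12 at -0.67 and Evi5 at -0.60 (adjusted p = 7.9e-07, 8.38e-05 and 5.7e-06). With the trend removed Evi5 was not called (-0.074, adjusted p = 0.139). Tbc1d2, which acts on Rab7, had 2.68, 2.62 and 2.30 FPKM in DMEM, against 0.796, 0.810 and 0.889 FPKM in RPMI-1640. Its RPMI-1640 libraries were all below 1 FPKM, so it reached the filter only through DMEM. Of 11 effectors of Rab27 and of Rab32 and Rab38, 5 were tested. As deposited 1 rose and 2 fell (35.4% and 40.6% of all genes), as also with a common sum (25% and 51.5%). With the trend removed 2 rose and 1 fell (36.8% and 37.2%). Myo5a, the motor that Rab27a recruits through melanophilin, had 40.2, 45.2 and 36.3 FPKM in DMEM, against 62.7, 62.4 and 61.1 FPKM in RPMI-1640. It fell by 0.61 (adjusted p = 8.97e-06), but was called higher with the trend removed (0.21, adjusted p = 0.000122). Mlph itself differed by 0.098 and was not called (adjusted p = 0.0756); with the replicate number as a block it was called higher (adjusted p = 0.0252), and with the trend removed the difference was -0.033 (adjusted p = 0.383). Sytl2, which links Rab27a to the plasma membrane, rose by 0.35 (adjusted p = 7.18e-05), and by 0.81 with the trend removed, and Ankrd27, which binds Rab32 and Rab38, fell by 0.28 (adjusted p = 0.000585).

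Effectors of endosomal and secretory Rabs counted 27 tested genes, of which 8 rose and 14 fell. These were shares of 29.6% and 51.9% where 35.4% and 40.6% of all genes did. With the trend removed 10 rose and 12 fell (36.8% and 37.2% of all genes), and with a common sum 6 rose and 17 fell (25% and 51.5%). Eea1, the tether that Rab5 brings to early endosomes, had 3.64, 4.49 and 3.18 FPKM in DMEM, against 10.1, 10.6 and 9.47 FPKM in RPMI-1640, a difference of -1.22 (adjusted p = 5.16e-07) that was -0.49 with the trend removed. Rab11fip5, an effector of Rab11, had 2.52, 2.26 and 2.69 FPKM in DMEM, against 0.498, 0.490 and 0.509 FPKM in RPMI-1640, and rose by 1.22 (adjusted p = 1.5e-07). It passed the filter of 1 FPKM only through its DMEM libraries. Fyco1, which links Rab7 to kinesin, differed by -0.97 (adjusted p = 1.6e-06), and by -0.53 with the trend removed. Of 16 genes of the BLOC-1, BLOC-2 and AP-3 complexes, which sort melanosomal cargo, 7 rose and 4 fell in DMEM (35.4% and 40.6% of all genes). With the trend removed 8 rose and 3 fell (36.8% and 37.2% of all genes), and with a common sum 5 rose and 5 fell (25% and 51.5%). Hps6 rose by 0.78, Bloc1s3 by 0.66 and Bloc1s1 by 0.53 (adjusted p = 2.24e-06, 1.22e-05 and 0.000162), and with the trend removed Hps6 and Bloc1s3 by 0.46 and 0.39. Bloc1s1 shared 74.2% of its words with other genes, and with the trend removed its difference was -0.0068 (adjusted p = 0.915).

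**Figure D5:**
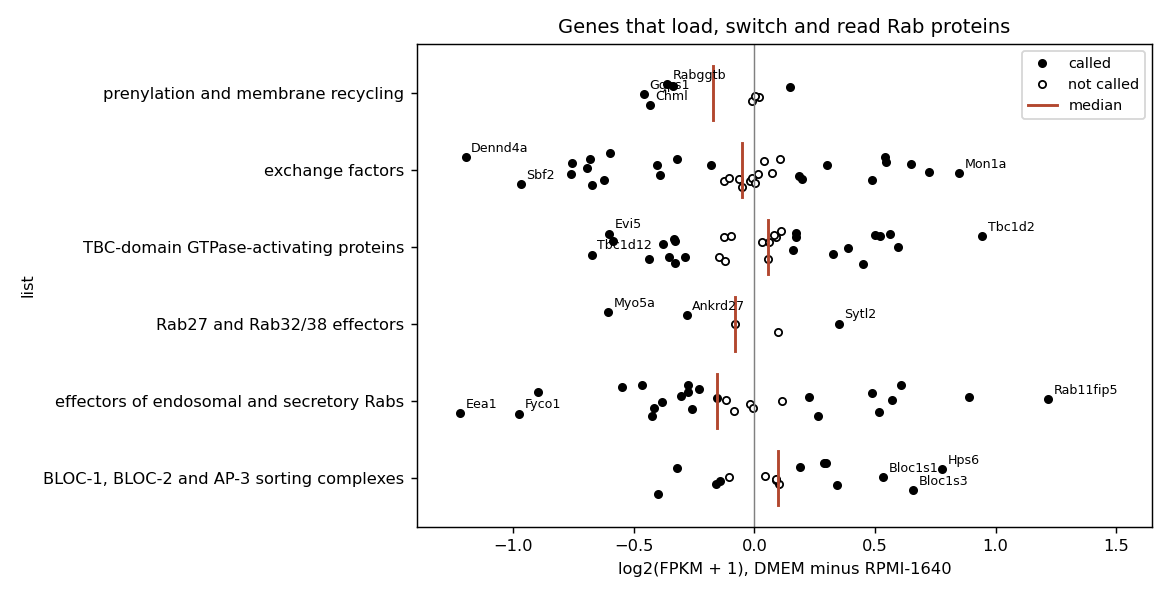
Difference in log2(FPKM + 1), DMEM minus RPMI-1640, of the 120 tested genes in 6 lists of Rab regulators and effectors, filled where limma called them, with the median of each list. Rab11fip5, which reached the filter only through its DMEM libraries, lies highest at 1.22 and Eea1 lowest at -1.22.

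Shared sequence or overlap went beyond 15% of words or 5% of exon length in 11 of the 47 Rab genes. Besides Rab20, Rab24, Rab4b and Rab43, these were Rab2b (68.5% of words, Gm43766), Rab6a (24.6%, Mrpl48), Rab39b (17.2%, Gm15063) and Rab33b (21.9%, Gm38160), each overlapping the named gene on the other strand, and Rab7 (19.2%, Rab7-ps1), Rab5b (15.5%, Gm13991) and Rab11b (15.5%, Rab11b-ps2), so their values are uncertain. In the 36 Rab genes with at most 15% of their words shared and at most 5% of their exons overlapped, 18 rose and 8 fell in DMEM, as deposited. Of all genes 35.4% rose and 40.6% fell on that scale. Counts for these 36 genes were not made on the other scales, where the split of the 47 differed.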

How the data were processed

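The deposited table gives FPKM per gene and library, computed by the authors; per the labels' protocols, a SMARTer kit turned 2 µg of total RNA into each library. The submitters' processing notes name the builds mm10 and GRCm38. The aligner, the counter, the annotation and the use of strand were not given in the sources used here. Groups follow the medium in the labels.

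The Rab genes and all lists were chosen with earlier results of these data known. Genes averaging at least 1 FPKM entered limma 3.58.1 under R 4.3.3 (eBayes with trend) on log2(FPKM + 1), DMEM minus RPMI-1640, two-sided, with Benjamini-Hochberg adjustment over all 10624 genes. Per-library values are given for the melanosome group, the 8 highest and 8 lowest differences, paralog groups described, and up to 3 called genes per regulator list; others that are named were chosen after their values were seen. Shares of summed FPKM were compared with exact permutation tests in scipy 1.17.1 under Python 3.11.15 (pandas 2.3.3, numpy 2.4.6, matplotlib 3.10.9). The trend was removed by subtracting natural splines (5 degrees of freedom) of each library's deviations on log2 length and GC content. Whole reads were recovered for 10623 genes within 0.001, and library totals from 718 genes with a single transcript, of which 79 agreed on the factor, so totals are approximate. Positions, GC and shared 32-base words came from GENCODE by symbol (97.2% of tested genes had a GC value). Length is that implied by the FPKM steps.

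Alternatives were a pseudocount of 0.01, no filter or a mean of at least 5 FPKM, a common total, quantile normalization, the replicate block, the trend removed with and without the block, limma-voom on the recovered reads, and each library left out. Same-numbered libraries deviated together (correlations of 0.151, 0.15 and 0.382, each over 0.1), which was read as pairing, from the data alone, although DMEM 2 with RPMI-1640 1 (0.137) and DMEM 1 with RPMI-1640 2 (0.131) were close behind. With the trend removed the correlations were 0.0567, 0.0408 and 0.151, and that of DMEM 1 with RPMI-1640 2 was 0.0727. These values do not tell replicates 1 and 2 apart, so the pairing is uncertain. Tested on simulated data with the spread of the 10624 genes of this comparison, limma recovered 25.8%, 88.0% and 98.3% of genes changed by 0.25, 0.5 and 1 on the log2 scale and called 5 unchanged genes.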

Additional observations from a re-analysis of the deposited data

How the results depend on the processing

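Scaled to a common total, 15 Rab genes were called higher and 17 lower in DMEM, the difference of the summed FPKM was -14.7, and uncalled differences turned negative for Rab22a (-0.13), Rab1a (-0.10), Rab18 (-0.095), Rab36 (-0.079), Rab35 (-0.099) and Rab21 (-0.080). With the length and GC trend removed, 5 Rab genes and 31 regulators were called lower. The sign then turned for Rabl2 (-0.024), Rab10 (0.031), Rab36 (-0.093), Rab35 (-0.29), Rab34 (-0.071), Rab31 (0.014), Rab30 (0.28), Rab6a (0.18), Rab39b (0.26), Rab8b (0.13), Rab23 (0.039), Rab2a (0.017), Bloc1s1 (-0.0068), Chml (0.20) and Myo5a (0.21), equally with the replicate block. The difference in share turned for Rab5c (-2.07 points), Rab1a (1.92) and Rab3a (-3.25). Quantile normalization turned Rab1a (-0.056), Rab4b (0.063) and Rab39b (0.065), and ended the calls of Rab38 and of Rab23 (-0.11, adjusted p = 0.0874), and added Rabl2 higher (0.32, adjusted p = 0.00506) and Rab2a (-0.14) and Rab7 (-0.22, adjusted p = 0.00139) lower. For all of these the cause was not tested.

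With the replicate block alone 24 Rab genes were called higher and 9 lower, the gain being Rabl2, and no other Rab call changed. With limma-voom on recovered reads, or a pseudocount of 0.01, 23 were higher and 9 lower, and without a filter 22 and 9. The last counts leave out Rab37, Rab40b and Rab44, which are not among the 47 genes and were called higher without a filter. Leaving out each library in turn gave 22 to 24 higher and 9 lower each time, and uncalled differences crossed 0 for Rab22a (-0.019 to 0.11), Rab4b (-0.071 to 0.041), Rab6a (-0.096 to 0.025) and Rab2a (-0.040 to 0.015). The summed difference then ran from 199 to 229 FPKM, and genes called in all from 7454 to 8011.

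With 3 libraries a medium the exact test cannot go below 0.1. The simulation changed far fewer genes than the 76% called in the data. Adjustment is stricter where few genes change, so its recovery of 25.8% at 0.25 does not give the power of this comparison. Among the Rab genes the largest uncalled difference was that of Rab2b (-0.18). Uncalled differences may still exist.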
